A study of Mus musculus with 8 samples.

Results

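The myostatin and activin pathway was examined here as 10 genes: the ligands Mstn and Gdf11, the ligand traps Fst and Fstl3, the receptors Acvr2a, Acvr2b and Acvr1b, and the intracellular Smad2, Smad3 and Smad7. Every region that the deposited chromatin accessibility table annotates to one of these gene names was taken, which gave 300 of 489637 regions (0.0613%). Of these, 123 (41.0%) held enough reads to be tested (the depth of 10 reads in the median library, in at least 4 of the 8), against 25.5% of all regions. The data came from ATAC-seq, in which a transposase inserts adapters into open DNA, in nuclei from whole gastrocnemius muscle (a calf muscle) of mice aged 6 months. All mice had the genotype Cre+:iMSBmal1 fl/fl, so that both groups carried Cre and floxed copies of Bmal1, a transcription factor of the circadian clock listed in the table as Arntl. The 4 Vehicle libraries came from mice given vehicle and the 4 iMSBmal1KO libraries from mice given tamoxifen, the drug that induces Cre in this model. Tamoxifen itself and the loss of Bmal1 cannot be told apart in this design, and the labels do not name the promoter that drives Cre. The labels do not say whether each library came from a separate animal, so that p-values measure the spread between these samples.

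Myostatin (Mstn) is a secreted growth factor, made mainly by muscle, that restrains muscle mass, and its loss gives enlarged muscles. Myostatin, its close relative GDF11 and the activins bind the type II receptors ACVR2A and ACVR2B, which activate type I receptors such as ALK4, the product of Acvr1b. The type I receptor phosphorylates SMAD2 and SMAD3, which enter the nucleus with SMAD4 and regulate genes. Follistatin (Fst) and FSTL3 bind the ligands outside the cell and block them, and SMAD7 inhibits the activated type I receptor.

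Promoter sequences are shown for 3 of the genes because their promoters differ in base composition and because the receptors Acvr2a and Acvr1b held most of the regions with low unadjusted p described below. Each is the 250 bases before the RefSeq start (GRCm38.p6, plus strand), at chr1:53061390-53061639 for Mstn, chr2:48813859-48814108 for Acvr2a and chr15:101173822-101174071 for Acvr1b. Capitals mark matches, on either strand, to 3 motifs: CACGTG, the E-box bound by CLOCK and BMAL1, CAGACA, a SMAD motif, and GGGCGG, the GC box, which reads CCGCCC on the other strand.
Mstn: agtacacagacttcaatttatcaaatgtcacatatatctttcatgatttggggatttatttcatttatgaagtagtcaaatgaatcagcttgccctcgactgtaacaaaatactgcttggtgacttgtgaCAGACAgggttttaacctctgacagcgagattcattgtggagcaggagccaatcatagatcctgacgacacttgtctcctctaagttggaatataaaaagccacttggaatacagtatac
Acvr2a: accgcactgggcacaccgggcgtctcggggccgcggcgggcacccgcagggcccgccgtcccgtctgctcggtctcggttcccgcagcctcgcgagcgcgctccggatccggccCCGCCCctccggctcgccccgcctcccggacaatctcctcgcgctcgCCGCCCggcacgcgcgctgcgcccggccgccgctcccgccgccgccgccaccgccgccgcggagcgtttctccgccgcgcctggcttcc
Acvr1b: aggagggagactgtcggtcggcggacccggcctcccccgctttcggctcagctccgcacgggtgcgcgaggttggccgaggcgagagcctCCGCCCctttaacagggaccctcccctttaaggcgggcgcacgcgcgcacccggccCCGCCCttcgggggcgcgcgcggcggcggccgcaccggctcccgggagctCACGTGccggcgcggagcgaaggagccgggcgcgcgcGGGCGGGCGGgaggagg
The Mstn promoter is AT-rich, with a GC content of 38.4% (percentile 9.38 of all promoters), and holds a single CAGACA at position -120 from the start. The Acvr2a promoter has a GC content of 82.0% and 2 GC boxes. The Acvr1b promoter has a GC content of 78.8%, 4 GC boxes of which the last pair share letters, and an E-box at position -54.

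The table's values were nearly all whole multiples of 1 step per library, and dividing by it gave 4.31 to 29.5 M read equivalents per library. Vehicle replicate 4 was the shallowest and stood apart: 24.9% of all regions were at 0 in it. Of its signal in regions, 16.5% was mitochondrial, against 1.11% to 5.51% in the other libraries. Its log2 signal correlated with the other libraries at r of 0.80 to 0.85 across regions. Printed changes that turned in direction, moved by over 1.5 times or crossed an unadjusted p of 0.05 without it are given both ways, and log2 changes without it come from the same fit on the other 7 libraries. Summed over its 82 regions, the targeted gene Arntl had higher values in every iMSBmal1KO library (3023 to 3421) than in any Vehicle library (1942 to 2688), a log2 change of 0.46 ± 0.14 (SE) that did not pass the threshold (adjusted p = 0.374). A sum over the gene does not read out a deleted exon. Npas2, another clock transcription factor, was higher after tamoxifen (808 ± 110 against 2016 ± 246, log2 change 1.32, adjusted p = 5.35e-04), so that the groups differed in a clock gene. All 7 muscle fibre markers had start-site regions, with a summed signal per kb of 546 to 946 in Vehicle and 729 to 871 in iMSBmal1KO libraries. Of other cell types, satellite cell markers lay at 50.6 to 73.0 and 50.9 to 60.8 (3 of 5 markers with start-site regions), and fibro-adipogenic markers at 99.7 to 162 and 112 to 169 (5 of 5). Endothelial markers lay at 42.2 to 65.6 and 43.2 to 51.8 (5 of 5), and smooth muscle and pericyte markers at 78.8 to 92.3 and 64.4 to 109 (3 of 4). Macrophage markers lay at 8.78 to 21.0 and 14.4 to 35.2 (2 of 5) and Schwann markers at 124 to 259 and 232 to 317 (2 of 3), and in every list the ranges of the groups overlapped. In such bulk nuclei, fewer cells of a type and less open chromatin per cell cannot be told apart, and the part of cell composition in the results below was not tested.

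Before any comparison between groups, the 10 genes differed widely in how open their start sites were. Signal was summed over a gene's regions within 1000 bp of an annotated start and divided by their length, which gave a level per kb that can be set side by side between genes. In Vehicle libraries the levels ran, from low to high, Mstn, Gdf11, Fst, Acvr2a, Acvr2b, Acvr1b, Smad3, Smad2, Smad7 and Fstl3. Mstn, the muscle ligand of the set, had the lowest level, 57.3 ± 18.2 per kb (SD, n = 4). Over all 8 libraries it lay at 64.7, percentile 18.4 of the 17762 genes tested. Gdf11 lay at 73.7 ± 3.54 and Fst at 101 ± 15.7, also below the median gene (212 over all libraries). The receptors came next, with 186 ± 41.9 for Acvr2a, 375 ± 53.3 for Acvr2b and 430 ± 89.7 for Acvr1b. The Smads were highest but for Fstl3: 634 ± 90.2 for Smad3, 637 ± 72.1 for Smad2 and 831 ± 131 for Smad7. Fstl3 reached 1134 ± 247, and percentile 96.0 over all libraries, although its regions lie at a transcript start that the table places 3307 bp from the RefSeq start. The pairs of neighbours Acvr2b and Acvr1b, Smad3 and Smad2, Smad2 and Smad7, and Smad7 and Fstl3 overlapped in their Vehicle libraries. The other neighbours did not overlap in Vehicle, but Mstn (55.6 to 82.3) and Gdf11 (59.3 to 104) did so in iMSBmal1KO libraries, as did Gdf11 and Fst (87.0 to 130). The plot of start-site levels shows this order.

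**Figure D1:**
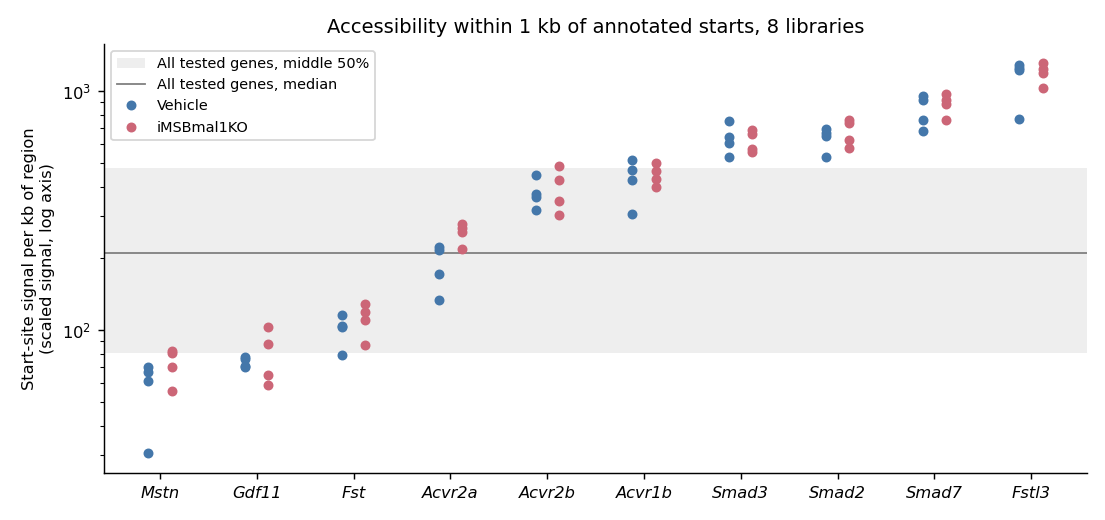
Start-site signal per kb of region (log axis) for each of the 10 genes, with 1 point per library for Vehicle and iMSBmal1KO; the line is the median of all tested genes and the band their middle 50%. Mstn, Gdf11 and Fst lie below the median and the Smads and Fstl3 lie above the band in all 8 libraries.

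The comparison between the groups asked which of these regions were more or less open after tamoxifen-induced knockout. None of the 123 tested regions passed an adjusted p of 0.05 in limma (lowest adjusted p 0.2997), where 0.0881% of all 124901 tested regions passed, nor did any by limma-voom (lowest 0.0946). At an unadjusted p under 0.05 there were 14 (11.4%), 4 higher and 10 lower in iMSBmal1KO, where 9.22% of all tested regions lay (6.59% higher and 2.63% lower), and limma-voom gave 18. The 14 belonged to 5 genes: 7 to Acvr1b, 3 to Smad3, 2 to Acvr2a and 1 each to Acvr2b and Smad7. In 8 regions (6.50%) the groups did not overlap, 3 higher and 5 lower, against 5.48% of all tested regions (3.62% higher and 1.87% lower). Changes are log2 differences of log2(signal + 1), which understate the change of low regions, and they ran from -1.56 to 1.06 over the members. Their median was -0.01, where that of all tested regions was 0.12, and 63 of the 123 (51.2%) were below 0, against 38.0% of all. Without Vehicle replicate 4 these medians were -0.08 and 0.04, and 77 of the 123 (62.6%) were below 0, against 45.7% of all. In that fit 13 of the 123 lay at an unadjusted p under 0.05, 2 higher and 11 lower, where 9774 of all 124901 tested regions did. The count of members dropped to 8 without Vehicle replicate 3 and to 9 without iMSBmal1KO replicate 1. The shares over all regions in those fits and by limma-voom are not given here. The median standard error was 0.34, and the smallest change that passed the threshold among all regions was 0.96, so that no smaller change of a single region passed anywhere in the table.

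**Figure D2:**
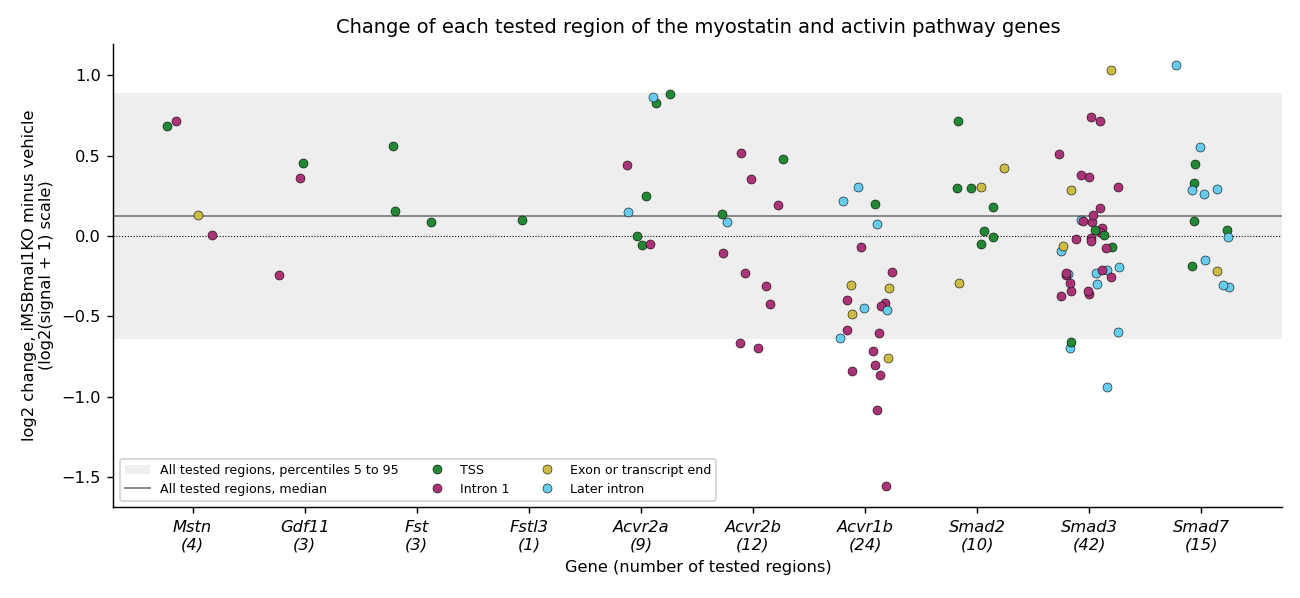
Log2 change (iMSBmal1KO minus Vehicle, log2(signal + 1) scale) of each of the 123 tested regions by gene and by the section of the gene it lies in; the line is the median of all tested regions and the band their percentiles 5 to 95. Most regions lie within the band, while those of Acvr1b lie mostly below 0, down to -1.56.

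Summed over all its regions, no gene of the set passed the threshold, where 0.13% of 22224 genes did. At an unadjusted p under 0.05 only Acvr2a passed, 1 of the 10, where 9.48% of all genes did. Without Vehicle replicate 4 Acvr2a no longer passed at that level and Acvr1b did. In Acvr2a alone were the groups separate, with iMSBmal1KO higher, where 4.94% of all genes had separate groups. Under median-of-ratios scaling the median change of all regions moved from 0.12 to 0.01, so that changes are best read against the median of all features, which for gene sums was 0.11. Relative to it the gene sums lay at 0.29 for Acvr2a, 0.15 for Mstn, 0.11 for Fst, -0.19 for Gdf11, -0.17 for Smad3, -0.10 for Acvr2b and -0.40 for Acvr1b. Leaving out Vehicle replicate 4 gave relative values of 0.23 for Acvr2a, 0.033 for Mstn, 0.20 for Fst, -0.29 for Gdf11, -0.20 for Smad3, -0.11 for Acvr2b and -0.45 for Acvr1b. Fstl3, Smad2 and Smad7 lay at -0.01, -0.02 and 0.01, and their sign turned under other filters or without single libraries. The plot of gene sums shows all libraries.

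**Figure D3:**
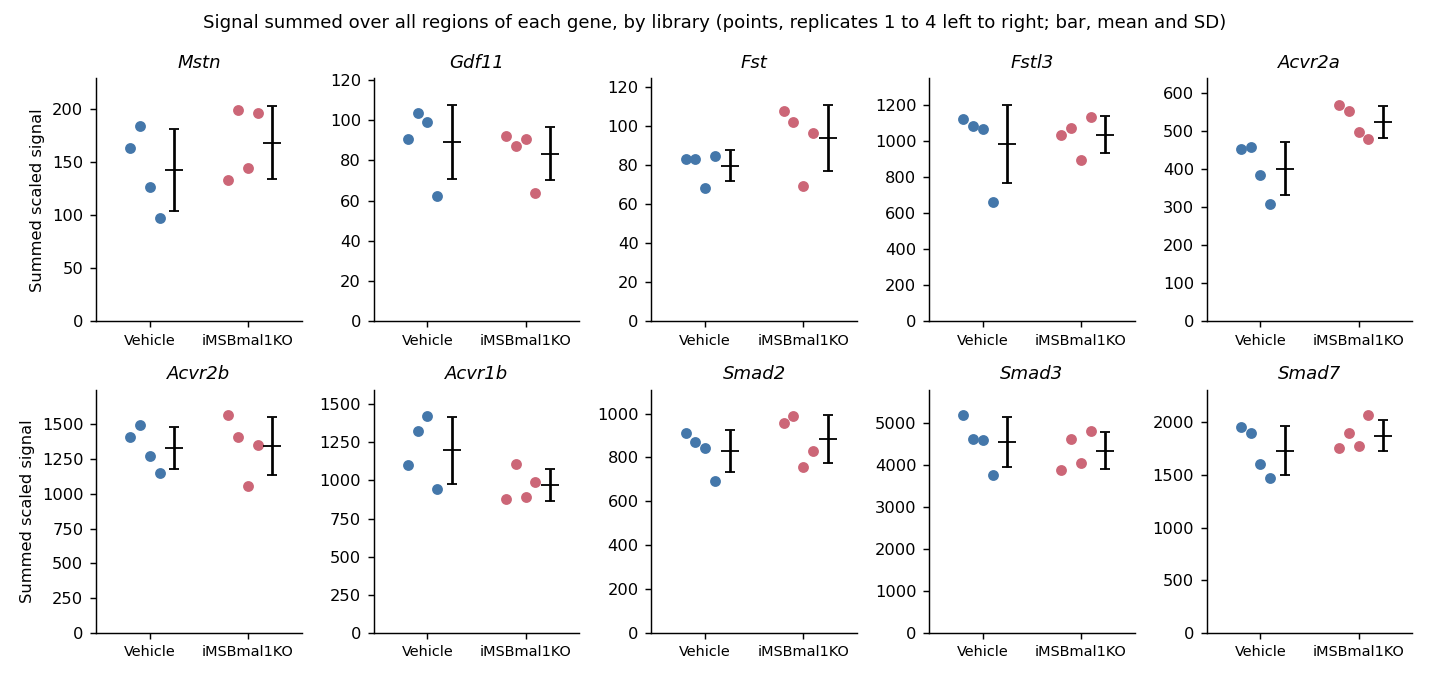
Scaled signal summed over all regions of each gene, with 1 point per library (replicates 1 to 4 from left to right) and the mean and SD of each group beside the points; axes start at 0 and differ between genes. The groups overlap in every gene but Acvr2a, whose Vehicle libraries reach 457 and whose iMSBmal1KO libraries start at 478.

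Mstn, the muscle growth inhibitor, had 17 regions, of which 4 were tested. Listed from replicate 1 to 4 here and below, its summed signal was 163, 184, 126 and 96.9 in Vehicle libraries and 133, 199, 144 and 196 in iMSBmal1KO libraries. The groups overlapped, with the lowest value in Vehicle replicate 4. The change of this sum was 0.25 ± 0.21 on the log2 scale (SE), with a 95% interval of -0.18 to 0.69 (adjusted p = 0.661), and it was 0.08 without Vehicle replicate 4. At its start region (chr1:53061597-53061721) the signal was 20.3, 27.7, 22.9 and 3.13 in Vehicle and 21.0, 28.4, 22.7 and 25.1 in iMSBmal1KO. Here 7 libraries lay close together and Vehicle replicate 4 alone was low. The log2 change there was 0.68 ± 0.49 (adjusted p = 0.651) with all libraries and 0.04 ± 0.29 without Vehicle replicate 4. The region of Mstn with the highest signal was in coding exon 2 (chr1:53064057-53064237), where Vehicle libraries averaged 55.5 ± 24.2 and iMSBmal1KO libraries 57.5 ± 12.1 (SD, n = 4), a log2 change of 0.13 ± 0.30 that turned to -0.10 ± 0.27 without Vehicle replicate 4. All 4 tested Mstn regions had changes above 0 with all libraries and 3 of 4 without Vehicle replicate 4, none at an unadjusted p under 0.05. The median of the 4 was 0.41 with it and 0.11 without it.

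The most open region near Mstn was not annotated to it. Regions that the table lists as intergenic within 50 kb of the members' transcripts were a set added after seeing the data, and 38 were tested. At an unadjusted p under 0.05 lay 10.6% of all tested intergenic regions and 1 of these 38. This was chr1:53037409-53038088, 23569 bp upstream of the Mstn start, with a signal of 1688, 1298, 1242 and 916 in Vehicle and 922, 942, 941 and 843 in iMSBmal1KO. The iMSBmal1KO libraries lay within a narrow span, and 3 of 4 Vehicle libraries lay above all of them, Vehicle replicate 4 falling among them. The difference was -0.46 ± 0.18 on the log2 scale (adjusted p = 0.499 in limma) and -0.62 ± 0.15 without Vehicle replicate 4 (adjusted p = 0.0997), neither of which passed the threshold. Across the 8 libraries, the summed signals that followed that of Mstn most closely among 11111 genes were those of Tcp11l2 (Pearson r = 0.986), Tmem131 (r = 0.985) and Eif4g3 (r = 0.981). These correlations are a description only, since the libraries share the groups and the differences in depth.

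Gdf11, the close relative of myostatin, had 12 regions, 3 of them tested. Its summed signal was 90.6, 104, 99.1 and 62.5 in Vehicle and 92.0, 87.0, 90.7 and 64.0 in iMSBmal1KO libraries, and the groups overlapped fully. This gave a log2 change of -0.08 ± 0.21, with a 95% interval of -0.52 to 0.35, and of -0.24 ± 0.19 without Vehicle replicate 4. Its start region (chr10:128891427-128891637) had a change of 0.45 ± 0.33, or 0.23 ± 0.31 without Vehicle replicate 4, and its first-intron region at chr10:128889013-128889164 one of -0.24 ± 0.31, neither at an unadjusted p under 0.05.

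Fst, which encodes the ligand trap follistatin, had 8 regions, of which 3 were tested, all at annotated starts. Summed, all 8 regions held 83.1, 83.2, 68.0 and 84.4 in Vehicle and 107, 102, 69.2 and 96.6 in iMSBmal1KO. Replicate 3 was the lowest of each group, and the other iMSBmal1KO libraries lay above all of Vehicle. The log2 change was 0.22 ± 0.20, with a 95% interval of -0.19 to 0.63 (adjusted p = 0.684). Fstl3, the second trap, had 2 regions, of which the broad one at chr10:79780027-79780845 held nearly all of the signal. Its value was 1121, 1082, 1064 and 666 in Vehicle and 1034, 1072, 893 and 1138 in iMSBmal1KO, so that Vehicle replicate 4 was far below the others. The log2 change was 0.10 ± 0.19 with all libraries and -0.08 without Vehicle replicate 4, which turned its direction.

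Acvr2a encodes a type II receptor that binds myostatin and activins. Its 41 regions together held 452, 457, 384 and 310 in Vehicle and 567, 553, 497 and 478 in iMSBmal1KO. Every iMSBmal1KO library lay above every Vehicle library. This sum differed by 0.40 ± 0.16 on the log2 scale, with a 95% interval of 0.06 to 0.74 (adjusted p = 0.505 in limma), and by 0.28 ± 0.14 without Vehicle replicate 4 (adjusted p = 0.754), when it no longer had an unadjusted p under 0.05. The start-site sum, over 12 regions, was 240 ± 53.9 in Vehicle and 329 ± 32.7 in iMSBmal1KO, a log2 change of 0.48 ± 0.19 (adjusted p = 0.468), where 10.1% of all start-site sums had an unadjusted p under 0.05 and 0.0788% passed the threshold. It was the only start-site sum of the 10 at an unadjusted p under 0.05, and without Vehicle replicate 4 it was 0.33 ± 0.17 and no longer so (adjusted p = 0.836). None of the 10 had separate groups, where 4.56% of all did, and in Acvr2a Vehicle replicate 2 (288) lay above iMSBmal1KO replicate 3 (283).

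Within Acvr2a, 2 of 9 tested regions had separate groups, both higher in iMSBmal1KO, where 3.62% of all tested regions were separate and higher. The strongest region (chr2:48814132-48814368) begins 23 bp after the start, next to the promoter shown above. Its signal was 128, 134, 93.4 and 28.1 in Vehicle and 155, 170, 139 and 148 in iMSBmal1KO. Vehicle replicate 4 was again the lowest, and the log2 change of 0.89 ± 0.40 (adjusted p = 0.537) became 0.38 ± 0.20 without it, with an unadjusted p above 0.05. A region in intron 4 (chr2:48886152-48886276) had its centre 72105 bp from the start of its transcript and lay 4114 bp from the nearest annotated start of the gene. It held 19.2, 17.5, 8.26 and 15.6 in Vehicle and 33.0, 34.3, 22.7 and 21.3 in iMSBmal1KO. Its change, 0.87 ± 0.33 (adjusted p = 0.490), did not rest on Vehicle replicate 4, without which it was 0.90. The region upstream of the start at chr2:48813568-48813702 had a change of -0.06 ± 0.31, or -0.03 ± 0.33 without Vehicle replicate 4.

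Acvr2b, the other type II receptor, had 29 regions, 12 of them tested. Together all 29 held 1411, 1495, 1272 and 1151 in Vehicle and 1564, 1406, 1059 and 1349 in iMSBmal1KO, with no separation. The log2 change was 0.01 ± 0.15, with a 95% interval of -0.31 to 0.32, and -0.06 ± 0.13 without Vehicle replicate 4. A region of intron 1, 185 bp from a start (chr9:119402629-119402766), was the only one at an unadjusted p under 0.05: its signal was 35.2, 28.8, 26.1 and 56.3 in Vehicle and 27.8, 18.4, 17.9 and 23.8 in iMSBmal1KO. The groups overlapped, the change was -0.67 ± 0.31 (adjusted p = 0.532), and it was -0.44 ± 0.30 without Vehicle replicate 4, with an unadjusted p above 0.05. The most open region of the gene, in intron 1 at chr9:119425264-119425732, had 505 ± 106 and 464 ± 68.3 (SD, n = 4), a change of -0.11 ± 0.20, or -0.25 ± 0.17 without Vehicle replicate 4.

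Acvr1b, the gene of the type I receptor ALK4, gave the lowest values of the set. Of its 24 tested regions 20 had changes below 0, where 38.0% of all tested regions did, and 21 lay below the median of all regions. An unadjusted p under 0.05 was found for 7, all lower in iMSBmal1KO, where 2.63% of all tested regions were lower at that level. Without Vehicle replicate 4, 21 of the 24 were below 0, against 45.7% of all. In that fit 8 of the 24 had an unadjusted p under 0.05, where 9774 of all 124901 tested regions had one. The Acvr1b regions are neighbours in 1 gene, and some abut, so that they are not independent of each other. The region with the smallest p of all members lies in intron 1, 3238 bp after the start (chr15:101177305-101177572). Its signal was 102, 162, 133 and 62.5 in Vehicle and 17.1, 53.5, 26.2 and 70.2 in iMSBmal1KO. Vehicle replicate 4 lay below iMSBmal1KO replicate 4, and the other libraries were separate. The difference came to -1.56 ± 0.41 on the log2 scale, with a 95% interval of -2.43 to -0.68 (adjusted p = 0.2997 in limma), and to -1.82 ± 0.43 without Vehicle replicate 4 (adjusted p = 0.196). In that fit the smallest p of the members belonged to another region of this intron, starting at chr15:101177786. Its change was -1.47 ± 0.35 there (adjusted p = 0.0923) and -1.09 with all libraries (adjusted p = 0.487).

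Intron 1 held 5 of the 7 Acvr1b regions at an unadjusted p under 0.05, and the others lay further along the gene. All 13 tested regions of intron 1 had changes below 0, where 41.8% of the tested intron 1 regions of all genes did. Without Vehicle replicate 4 it was 12 of 13, where 49.4% did. The median of the 13 was -0.60, and -0.84 without that library. No single region of the intron had separate groups. The 22 regions of that intron together held 389, 514, 592 and 297 in Vehicle and 178, 336, 236 and 294 in iMSBmal1KO libraries. Again Vehicle replicate 4 fell within the span of the other group. The region at the start (chr15:101173686-101174092), which covers the whole promoter shown above with its E-box, held 317, 350, 351 and 191 in Vehicle and 364, 378, 287 and 325 in iMSBmal1KO. The groups overlapped there, with a change of 0.20 ± 0.22 that turned to -0.01 without Vehicle replicate 4. Whether the change at the start differs from that in the intron was not tested. Summed over all 49 regions the gene had 1197 ± 217 in Vehicle and 969 ± 106 in iMSBmal1KO (SD, n = 4), a log2 change of -0.29 ± 0.16 with a 95% interval of -0.62 to 0.04 (adjusted p = 0.553). Without Vehicle replicate 4 it was -0.40 ± 0.13, with an unadjusted p under 0.05 that did not hold after adjustment (adjusted p = 0.437).

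Further along Acvr1b, the groups were separate in 3 regions, each lower in iMSBmal1KO, where 1.87% of all tested regions were separate and lower. In intron 3 (chr15:101195083-101195247) the signal was 27.7, 31.9, 26.7 and 31.3 in Vehicle and 18.4, 25.1, 14.3 and 17.6 in iMSBmal1KO, a change of -0.64 ± 0.29 (adjusted p = 0.530), or -0.61 ± 0.30 and an unadjusted p above 0.05 without Vehicle replicate 4. In a 3' UTR exon (chr15:101211479-101211678) it was 20.3, 18.5, 22.2 and 21.9 against 11.98, 9.20, 15.5 and 11.3, a change of -0.76 ± 0.32 (adjusted p = 0.508). At the transcript end (chr15:101212576-101212708) it was 90.6, 98.6, 105 and 90.7 against 64.6, 85.3, 87.1 and 75.3, a change of -0.31 ± 0.22. In these 3 regions Vehicle replicate 4 lay with the rest of its group. The highest change of the gene was 0.31 ± 0.23, in another region of intron 3 (chr15:101198341-101198577). The plot of signal along the receptor genes shows the regions near the start of Acvr1b, with those of early intron 1, beside those near the start of Acvr2a.

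**Figure D4:**
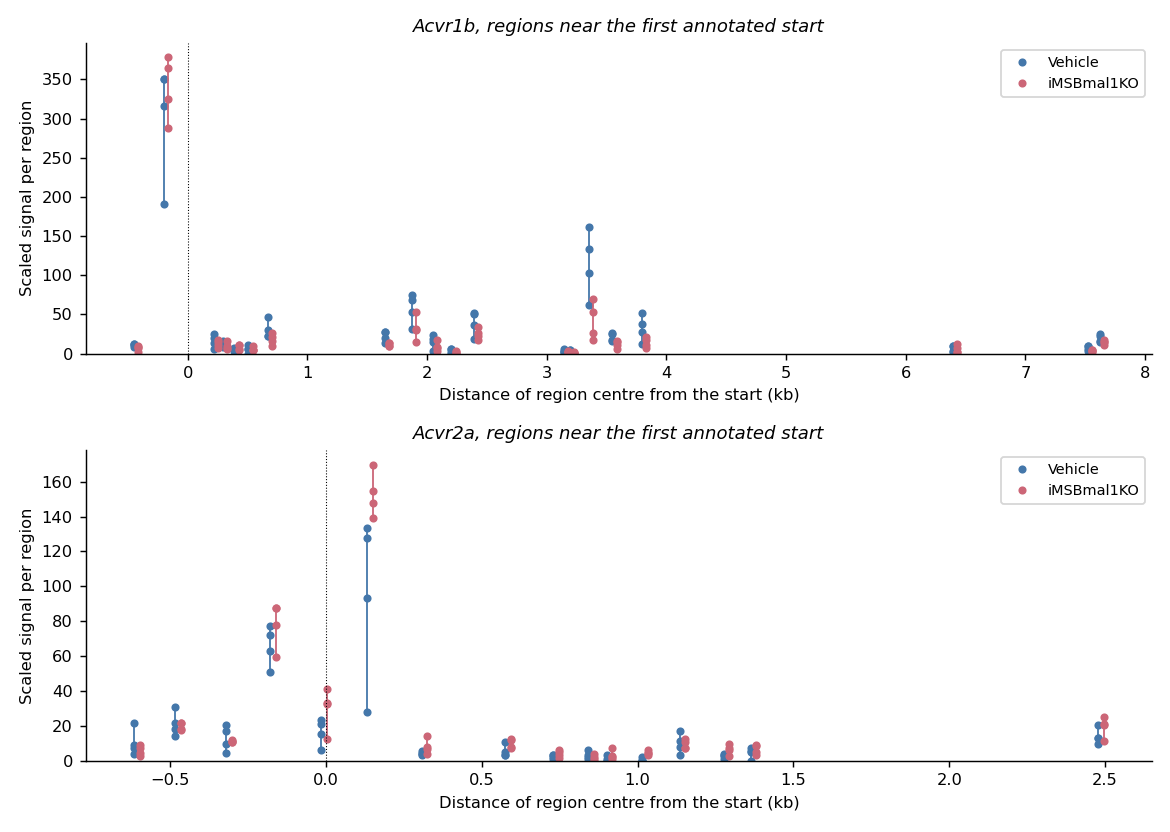
Scaled signal of each region near the first annotated start of Acvr1b (upper) and Acvr2a (lower) against the distance of the region's centre from that start in kb, with 1 point per library and lines that span each group; iMSBmal1KO points are shifted slightly to the right. In Acvr1b the groups overlap both at the start and at each tested region of intron 1 shown, where the log2 change is below 0. Tested regions further along this intron lie outside the plot. In Acvr2a the groups are separate at the region just after the start.

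Smad3, the effector of the pathway that binds DNA directly, had the most regions, 97, of which 42 were tested. The sum over all 97 was 5204, 4639, 4605 and 3758 in Vehicle and 3886, 4631, 4062 and 4821 in iMSBmal1KO libraries, and the groups overlapped fully. On the log2 scale the change was -0.06 ± 0.13, with a 95% interval of -0.34 to 0.22, and -0.15 ± 0.11 without Vehicle replicate 4. Of the tested regions 25 had changes below 0 and 17 above, or 32 and 10 without Vehicle replicate 4. Of all tested regions 38.0% were below 0, or 45.7% without that library. The groups were separate in 2 of the 42, both lower in iMSBmal1KO, where 5.48% of all tested regions were separate (1.87% lower). One, in intron 4 (chr9:63663806-63663900), held 45.8, 32.9, 45.1 and 50.03 in Vehicle and 23.1, 26.8, 24.1 and 31.4 in iMSBmal1KO, a change of -0.70 ± 0.27 (adjusted p = 0.492). The other, in intron 5 (chr9:63657538-63657852), had 34.3 ± 3.07 and 29.4 ± 0.819 (SD, n = 4), a change of -0.21 ± 0.26. A region of intron 1 (chr9:63716318-63716483) went the other way, with 23.5, 52.4, 29.9 and 21.9 in Vehicle and 51.6, 55.2, 56.1 and 38.9 in iMSBmal1KO, a change of 0.72 ± 0.30 (adjusted p = 0.505), or 0.57 ± 0.28 and an unadjusted p above 0.05 without Vehicle replicate 4. At its most open start (chr9:63757914-63758551) the means were 806 ± 98.5 and 812 ± 115, a change of 0.01 ± 0.18 that turned to -0.08 ± 0.16 without Vehicle replicate 4.

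Smad2, the partner effector of Smad3, had 15 regions, of which 10 were tested, and none had an unadjusted p under 0.05. All 15 summed to 910, 869, 843 and 694 in Vehicle and 957, 991, 755 and 829 in iMSBmal1KO libraries, with overlapping groups. On the log2 scale the change was 0.09 ± 0.15, with a 95% interval of -0.23 to 0.40, and 0.0064 ± 0.13 without Vehicle replicate 4. Its largest change, 0.72 ± 0.45 in a start region (chr18:76241687-76241765), became 0.15 without Vehicle replicate 4, which held 9.38 there against 43.7 to 61.0 in the other Vehicle libraries.

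Smad7, the inhibitory Smad that the pathway itself induces, had 30 regions, 15 of them tested. Its summed signal was 1954, 1895, 1601 and 1473 in Vehicle and 1752, 1902, 1771 and 2069 in iMSBmal1KO, a log2 change of 0.12 ± 0.14 with a 95% interval of -0.17 to 0.41, or 0.05 ± 0.12 without Vehicle replicate 4. A region of intron 2 (chr18:75375697-75375807) had its centre 6762 bp from the start of its transcript and lay 783 bp from the nearest annotated start of the gene. This region had the highest change of all members. It held 17.1, 9.25, 17.2 and 12.5 in Vehicle and 32.1, 25.1, 22.7 and 41.4 in iMSBmal1KO. Every iMSBmal1KO library lay above every Vehicle library, with a change of 1.06 ± 0.32 and a 95% interval of 0.39 to 1.73 (adjusted p = 0.362 in limma), and 1.03 without Vehicle replicate 4. At most 27 reads per Vehicle library and 19 to 75 per iMSBmal1KO library stood behind these values. The most open start region of Smad7 (chr18:75366524-75367247) had 985 ± 223 and 1037 ± 139, a change of 0.09 ± 0.19 that turned to -0.04 ± 0.16 without Vehicle replicate 4.

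By the section of the gene in which they lie, the members' regions were mostly intronic. Of the 300, 149 (49.7%) lay in intron 1, against 11.03% of all regions, and 69 in later introns, 43 at starts, 17 in coding exons, 10 in 5' UTR exons, 8 at transcript ends and 4 in 3' UTR exons. The 53 tested regions of intron 1 had a median change of -0.21 (range -1.56 to 0.74), where all tested regions of intron 1 had 0.08. Below 0 were 34 of the 53, against 41.8% of all tested regions of intron 1. Of the 53, 13 belong to Acvr1b and 25 to Smad3, so that few genes set this median. The 28 tested regions of later introns had a median of -0.12, where all such regions had 0.11. When Vehicle replicate 4 was left out, the medians were -0.20, against 0.0053, in intron 1 and -0.09, against 0.02, in later introns. At starts the 30 tested regions had a median of 0.15, close to the 0.17 of all start regions. Of the 30, 24 were above 0 and 6 below, where 30.1% of all start regions were below 0. Without Vehicle replicate 4 the start regions had a median of -0.0030, against 0.07 for all start regions. In that fit 15 of the 30 were above 0 and 15 below, where 40.5% of all start regions were below 0. The 6 tested coding exon regions had a median of 0.03, against 0.06, and of -0.11, against -0.0033, without Vehicle replicate 4. In each of the remaining sections 2 regions were tested.

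The other genes of the pathway were taken from a list of 54, of which 49 had regions in the table and 47 had tested ones. None of their 502 tested regions passed the threshold, and 31 (6.18%) had an unadjusted p under 0.05, 19 higher and 12 lower, where 9.22% of all tested regions had one. Their median change was 0.07. Other ligands, such as the activin and TGF-beta genes, had 1 higher and 3 lower of 47, and other receptors 4 higher and 2 lower of 166. Other extracellular inhibitors and binders had 5 higher and 2 lower of 75, and the proteases that activate the ligands 1 higher and none lower of 18. Other Smads and cofactors had 5 higher and 4 lower of 96, and feedback factors and ubiquitin ligases 3 higher and 1 lower of 100. The smallest adjusted p, 0.0937, belonged to a region in intron 2 of Ski, a corepressor that binds SMADs (chr4:155210730-155210921). It held 27.7, 36.0, 36.7 and 34.4 in Vehicle and 13.7, 14.2, 4.77 and 11.3 in iMSBmal1KO, so that the groups were separate. The change was -1.62 ± 0.34, and it passed the threshold with median-of-ratios, trimmed-mean or loess scaling and by limma-voom. Summed over all 64 regions, Ski had 2304 ± 248 and 2150 ± 293, a change of -0.10 ± 0.14 (adjusted p = 0.798), or -0.17 ± 0.12 without Vehicle replicate 4. Of the 49 gene sums on this list 3 (6.12%) had an unadjusted p under 0.05, where 9.48% of all gene sums had one. They were those of Chrd (an extracellular BMP antagonist), Trim33 (a SMAD-binding ubiquitin ligase) and Smurf2 (a ubiquitin ligase that acts on the receptors), with changes of 0.43, 0.42 and 0.37 and adjusted p of 0.517, 0.511 and 0.517. Without Vehicle replicate 4 the changes were 0.37, 0.29 and 0.23, none at an unadjusted p under 0.05.

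Promoter windows were matched for 7 of the 10 genes, all but Fst, Smad2 and Smad7. Both strands were searched for the 3 motifs above and for AGGTCA, the element bound by ROR and REV-ERB receptors. No match of one motif overlapped a match of another. The E-box was found in Acvr1b alone, where 6.02% of 32851 promoters hold it. CAGACA was found in Mstn and Fstl3 (17.1% of promoters) and AGGTCA in Fstl3 (14.0%). The GC box was found in 6 of the 7 (32.7% of promoters), with 8 copies in Gdf11 and none in Mstn. The promoter windows of Gdf11 and Fstl3 overlapped no region of the table annotated to them, and that of Mstn shared 43 of 250 bases with its start region. That of Acvr1b lay wholly within its start region, whose groups overlapped as given above.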

How the data were processed

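The authors deposited 1 table of 489637 regions with a scaled signal for each of the 8 libraries and gene annotation. The submitters' processing notes name Partek, Bowtie2, MACS2 and DESeq2, with mm10 and GRCm39, but no role; the removal of duplicates and the transposase shift are not given in the sources used here. The table names no build. Its positions, counted from 1, are given as listed, and its transcripts of the 10 genes overlapped the RefSeq genes of GRCm38.p6. Sequences are RefSeq's (GRCm38.p6). Per library 98.3% to 99.8% of non-zero values were whole multiples of 1 step (tolerance 0.02 reads), which gave read equivalents of 4.31 to 29.5 M. All value columns were used.

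The members and gene lists were chosen with earlier results of these data known. Features with 0.762 read equivalents per M (10 reads at the median depth) in at least 4 libraries and 15 reads in all were tested with limma-trend (limma 3.58.1, R 4.3.3, robust) on log2(signal + 1), with group as the only term and Benjamini-Hochberg adjustment over all 124901 regions, 22224 gene sums or 17762 start-site sums. The threshold was an adjusted p of 0.05. Named by rule were every member's sums and, per member, its most open region and that of the smallest p in either direction. Region calls of the pathway list, Arntl, Npas2 and the 3 genes closest to Mstn were named too. Regions with separate groups, the Mstn start region, the upstream region and Ski were named after their values were seen. So were the pathway gene sums at an unadjusted p under 0.05 and the Acvr1b region of smallest p without Vehicle replicate 4. Python 3.11.15, pandas 2.3.3 and matplotlib 3.10.9 were used. The fit was also run on simulated libraries with the real mean signals and depths. Their spread was set alike for every library, unlike the data, where Vehicle replicate 4 stood apart. Nothing is concluded from that run. Alternatives were other scalings, pseudocounts, filters, limma-voom, a replicate block, other start windows, merging of abutting regions and leaving out each library. Count models planned for whole reads were not run, because some values were not whole multiples.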

Additional observations from a re-analysis of the deposited data

Results flagged for a closer look

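Groups of 4 libraries were examined, 90 in all (member gene sums, start-site sums and named regions). In 4 of them a library's gap to its nearest neighbour exceeded Dixon's limit at the 95% level. Independent groups would give 4.5 by chance, but these sums and regions share signal, so that the counts cannot be compared. The summed signal of Fst in Vehicle replicate 3 was 68.0, where the other Vehicle libraries lay between 83.1 and 84.4. The gene sum of Fstl3 in Vehicle replicate 4 was 666, where the others lay between 1066 and 1125. Its start-site sum rests on the same regions and had the same value of 666 in that library. The region of Fstl3 at chr10:79780027-79780845 also held 666 there, against 1064 to 1121 in the other Vehicle libraries. Vehicle replicate 4 is the shallowest library and has the highest mitochondrial share, and the part of either in these values was not tested.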

How the results depend on the processing

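No member region passed the threshold in any setting run, leaving out each library included. Over the members' sums and their regions named by rule, the lowest adjusted p was 0.105. Of 819 single settings of these 45 values, 769 kept their direction relative to the median of all features, and none passed the threshold. By that measure 50 turned in sign, in 13 values near 0. A printed log2 change could turn where its relative value did not, as that of Fstl3 did without Vehicle replicate 4. Where signs turned, the reason was not tested. Among all regions 110 passed (39 higher, 71 lower), against 279 with median-of-ratios factors (85 and 194), 291 with trimmed-mean factors, 342 with loess, 342 by limma-voom, 195 with no filter, 36 at an adjusted p of 0.01 and 32 (without Vehicle replicate 1) to 281 (without Vehicle replicate 4). Gene sums gave 29 (16 higher, 13 lower), against 48 with median-of-ratios factors (16 and 32), 48 with trimmed-mean factors, 65 with loess, 7 at 0.01 and 7 (without iMSBmal1KO replicate 2) to 107 (without Vehicle replicate 2). Start-site sums gave 14 (6 and 8), against 32 with median-of-ratios factors (7 and 25), 34 with trimmed-mean factors, 23 with total reads, 36 with loess, 22 with a filter 3 times as high, 32 by limma-voom, 8 at 0.01 and 7 (without iMSBmal1KO replicate 3) to 219 (without Vehicle replicate 2). Of the pathway list, 1 region passed with median-of-ratios, trimmed-mean and loess scaling and by limma-voom, that of Ski, and 0 to 0 without single libraries. The member regions at an unadjusted p under 0.05, 14 of 123, became 29 of 300 with no filter and 5 of 45 with the higher filter. Without single libraries they were 8 to 16 of 123. The shares over all regions in these settings are not given here, so that the counts alone are no measure of a shift.

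Relative to all regions, the members' median change was -0.13 (-0.011 with no filter, -0.17 to -0.09 without single libraries). It was -0.33 in intron 1 (-0.050 with no filter, -0.17 with the higher filter, -0.34 to -0.24 without single libraries), -0.24 in later introns (-0.039 with no filter, -0.29 to -0.13 without single libraries) and -0.09 in coding exons (0.10 with no filter, -0.17 to 0.027 without single libraries).

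Relative values that turned in sign were, with no filter, the gene sums of Fstl3 (0.012) and Smad2 (0.0038), the Fstl3 region (0.066) and the Smad7 start region (0.061). With the higher filter they were the gene sum of Smad7 (-0.00144), the start-site sum of Fst (-0.018) and the Mstn exon 2 region (-0.030), which also turned with loess (-0.050) and limma-voom (-0.018). The start-site sum of Fst turned with median-of-ratios factors (-3.73e-04), trimmed-mean factors (-3.44e-04), loess (-0.00577), a pseudocount of 0.5 (-4.68e-05) and a window of 500 bp (-0.00699). The start-site sums of Gdf11 (0.026 in a window of 500 bp) and Smad7 (0.0080 with loess) turned as well. Without single libraries the gene sums ranged from -0.13 to 0.049 for Fstl3, -0.046 to 0.020 for Smad2 and -0.049 to 0.060 for Smad7. The start-site sums ranged from -0.21 to 0.034 for Gdf11, -0.10 to 0.15 for Fst, -0.15 to 0.010 for Fstl3, -0.14 to 0.048 for Acvr1b and -0.12 to 0.039 for Smad7. The regions ranged from -0.14 to 0.19 for Mstn exon 2, -0.25 to 0.45 for the most open Fst region, -0.12 to 0.026 for Fstl3, -0.046 to 0.16 for the Acvr1b start and -0.10 to 0.076 for the Smad7 start.

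With the replicate number as a block, 100 regions, 116 gene sums and 115 start-site sums passed, and no member did. The samples share only a number: deviations of same-numbered libraries correlated at -0.06, 0.14, 0.02 and 0.02, and not every library correlated best with its own number. Low regions rest on few reads in the shallowest library.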
